A study of Homo sapiens with 6 samples.

Results

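The 37 protein-coding genes described here encode the α and β subunits of the integrins and the chains of the laminins. They were chosen by gene name alone, as the 17 ITGA, 8 ITGB, 5 LAMA, 4 LAMB and 3 LAMC genes among the 33841 genes listed, of which 16508 are protein-coding. Their RNA was measured by sequencing in 6 libraries of LN229, an established human glioblastoma cell line. The study asked how loss of PARP3, an enzyme that attaches ADP-ribose to proteins and DNA ends, changes the transcriptome of these cells. The WT group holds 3 biological replicates of the parental cells, labelled PARP3+/+. The PARP3-/- group holds 3 biological replicates of LN229 cells whose PARP3 gene was disrupted with CRISPR/Cas9, using paired nickase guides. All cells were proliferating in serum-containing medium without further treatment. The PARP3-/- cells were grown from single cells, the study describes more than 1 such clone, and the labels do not say which was sequenced, so that the genotype and any other feature of a clone cannot be told apart.

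Integrins are receptors that span the cell membrane, and each consists of 1 α and 1 β subunit. The α subunit largely sets the ligand: α3, α6 and α7 bind laminins, α1, α2, α10 and α11 bind collagens, and αV, α5 and αIIb recognise the RGD motif of fibronectin, vitronectin and latent TGF-β. Laminins are cross-shaped trimers of an α, a β and a γ chain that form the sheet of basement membranes. Glioblastoma cells are known to migrate along blood vessel walls and use laminin and fibronectin receptors to do so.

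Each library held between 29692065 and 46010369 counts, of which 0.573 to 0.688% lay on the 37 genes. A level of 3 counts, taken as the least that can be told from no reads, came to between 0.0673 and 0.0996 CPM, where CPM is the count scaled to a common library size and composition. This limit covers counting error only. Both libraries of replicate 1 stood apart from the others of their genotype: the χ2 statistic per degree of freedom between them and the other replicates was 52.7 to 105.6, against 12.1 between WT 2 and WT 3 and 4.08 between PARP3-/- 2 and PARP3-/- 3. The labels number the replicates but do not say that same-numbered libraries were made together. Deviations from the genotype means correlated at 0.676 between the replicate 1 libraries and 0.517 between those of replicate 2. For WT 3 the correlation was 0.242 with PARP3-/- 3 and 0.264 with PARP3-/- 2. A fit that blocks on the replicate number stands beside the one that does not, and rests on a pairing clear only for replicate 1. PARP3 itself stood at 34.9, 22.4 and 24.3 CPM in WT and 19.1, 22.5 and 19.5 CPM in PARP3-/- cells, in order of replicate number. Its log2 fold change was −0.42 (adjusted p = 0.307), or −0.39 (adjusted p = 0.0469) in the blocked fit. This count covers the whole gene and does not resolve the disrupted exons, so it checks the labels only in part. Of 8 glioma and neural progenitor genes, vimentin, nestin and CD44 were abundant and the astrocyte filament gene GFAP lay at no more than 0.415 CPM in any library. The sum of the 8 was 5188 to 5705 CPM in WT and 5003 to 6002 CPM in PARP3-/- cells, most of it vimentin and nestin. Of the other members, FABP7, a fatty acid binding protein of radial glia, was 79.6, 42.0 and 65.1 CPM in WT and 34.5, 19.0 and 22.9 CPM in PARP3-/- cells, and fell by 1.29 on the log2 scale with the replicate block (adjusted p = 5.38e-07; 0.0577 without it and 0.000348 with DESeq2). With the block OLIG2, SOX2 and CD44 were lower too, at −0.52, −0.32 and −0.25 (adjusted p = 0.00152, 0.00516 and 0.00721). The part of these shifts in the results that follow was not tested. The sums of the leukocyte, platelet, endothelial and epithelial marker lists (3, 1, 4 and 3 genes) stayed at or under 0.696, 0.0332, 1.45 and 4.96 CPM.

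LN229 cells expressed a broad set of these genes, led by the receptors of laminin. To compare genes with one another, CPM was divided by the length of the canonical transcript in kb, and the levels are given as mean ± SD over 3 libraries. ITGB1, the β subunit that pairs with most α subunits, had the highest level in WT cells with 186 ± 1.22 CPM per kb, followed by ITGA3 with 176 ± 14.2. LAMB1 stood at 139 ± 16.0 and ITGA6 at 115 ± 14.8 CPM per kb. The WT libraries of ITGB1 and ITGA3 overlapped, while those of LAMB1 and ITGA6 just did not. LAMC1, LAMA4, ITGAV and ITGB8 followed with 83.7 ± 12.7, 56.9 ± 21.7, 55.1 ± 2.80 and 52.6 ± 3.13 CPM per kb, and the last 3 did not differ beyond their spread. In PARP3-/- cells ITGA3 stood first with 254 ± 16.9 CPM per kb and ITGB1 second with 231 ± 8.84. ITGB5 moved from rank 9 to rank 5 and LAMA4 from rank 6 to rank 10. These exact ranks are not firm: in PARP3-/- cells the libraries of ITGB5 overlapped those of LAMC1, and those of LAMA4 overlapped those of ITGB8. These ranks hold for canonical transcripts. Per kb of the median annotated transcript, the length given in the deposited table, ITGB5 already exceeded ITGB8 in WT (225 against 138), whereas it was below ITGB8 per kb of canonical transcript (39.97 against 52.6). Of the 37 genes, 28 had enough counts to be tested. The 9 others had 0 to 11 counts in each library: the leukocyte integrin subunits ITGAL, ITGAM, ITGAX and ITGAD, the epithelial subunit ITGB6, ITGB7, and the laminin chains LAMA1, LAMB4 and LAMC3. Several of these counts were at or under the 3-count limit, so that a difference between the genotypes was not detectable there at this depth.

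**Figure D1:**
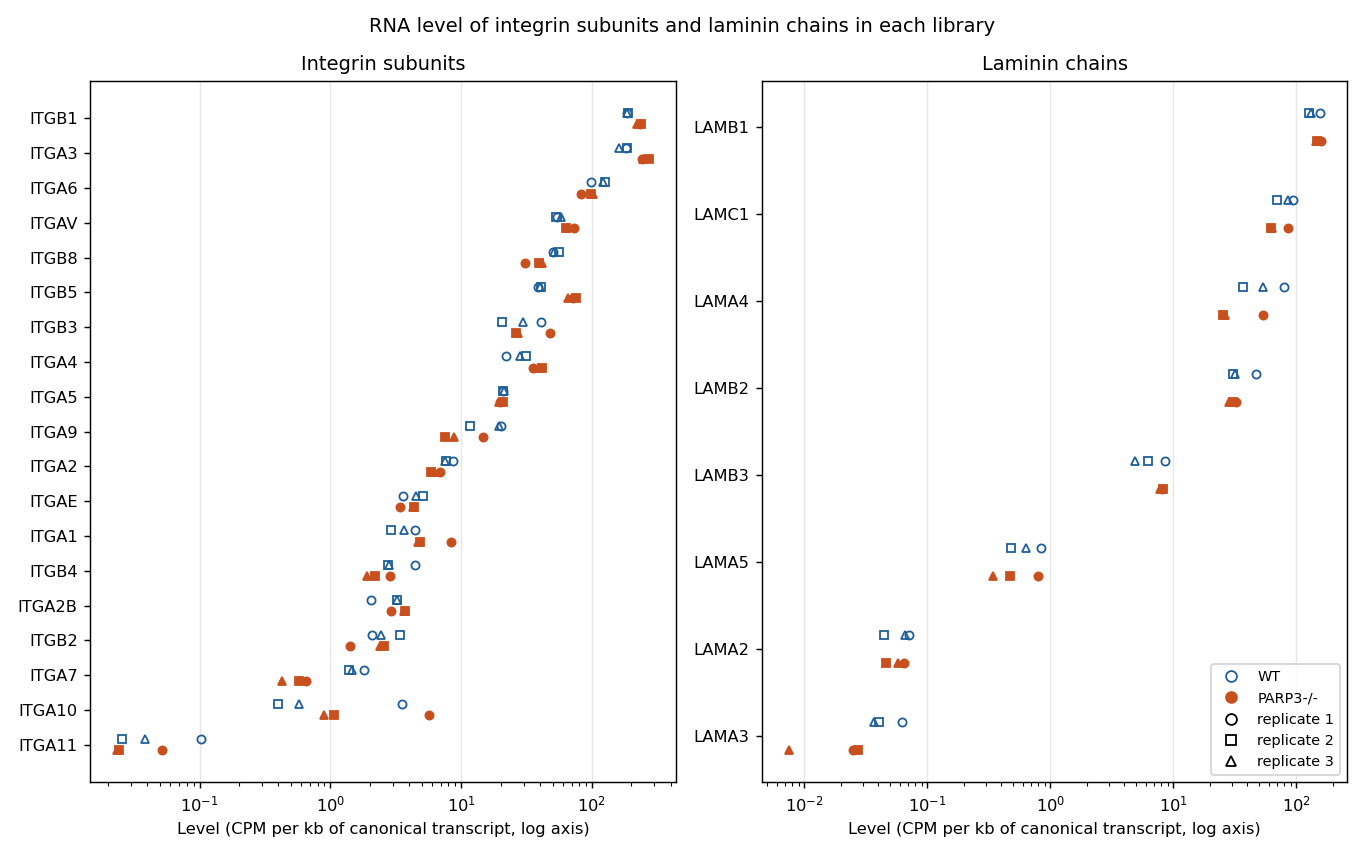
Level of 27 of the 28 tested genes in each library, as CPM per kb of canonical transcript on a log axis, for WT (open blue) and PARP3-/- (filled orange), with replicates 1, 2 and 3 as circles, squares and triangles. ITGB1 and ITGA3 lie at the top of the integrin subunits and LAMB1 at the top of the laminin chains, while both circles of ITGA10 lie far to the right of its other 4 points.

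Between the genotypes, ITGB5 and ITGA3 were higher and ITGA7 was lower in PARP3-/- cells (edgeR's quasi-likelihood test, Benjamini-Hochberg adjusted p under 0.05 over 17144 genes). These are 3 of the 28 tested genes, against 4.7% of all genes tested. With the replicate block 17 of 28 passed, against 24.3% of all genes tested. Of the 17, 9 were lower (12.5% of all genes) and 8 were higher (11.8% of all genes). The genotypes did not overlap in any library for 10 of the 28, against 22.8% of all genes, and all 3 same-numbered pairs had the same sign for 23 of the 28, against 54.3% of all genes. Abundant genes passed the blocked test more often in these data: among genes with a mean of at least 10 CPM the background was 28.0%, against 15 of 21 of the integrin and laminin genes. With both replicate 1 libraries left out, 18 of the 28 passed with the block, against 29.9% of all genes, and 15 without it, against 19.0%. A block uses up part of the few libraries, so blocked p-values rest in large part on a spread shared over all genes. This holds for the blocked fit of all 6 libraries too, and most for the blocked fit without replicate 1. The blocked p-values thus say less about the agreement of each gene's own replicates. DESeq2 without the block called 6 of the 33 genes to which it gave an adjusted p, against 5.93% of all genes. These were ITGA7 and ITGB8, lower (3.84% of all genes), and ITGA3, ITGA4, ITGB1 and ITGB5, higher (2.09%). A log2 fold change beyond 1 was reached by 1 of the 3 genes called without the block, ITGA7, or 1 of 28 against 2.82% of all genes tested. By family, the α subunits lower with the block were ITGA2, ITGA6, ITGA7 and ITGA9, and those higher were ITGA1, ITGA2B, ITGA3, ITGA4, ITGA10 and ITGAV. The β subunits divided into ITGB4 and ITGB8, which were lower, and ITGB1 and ITGB5, which were higher. Of the laminin chains, edgeR called 3 of 9 lower with the block and 0 higher. At an unadjusted p under 0.05 the blocked counts were 4 lower and 1 higher, while 6063 of all 17144 genes had such a p in either direction. DESeq2 called 0 of these chains in either direction. With replicate 1 left out of the blocked fit 3 chains were lower and 2, LAMB1 and LAMB3, were higher. The libraries are bulk RNA, in which fewer cells with a transcript and less of it per cell cannot be told apart. The median log2 fold change of the 28 was −0.12, beside −0.0062 for all genes tested.

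**Figure D2:**
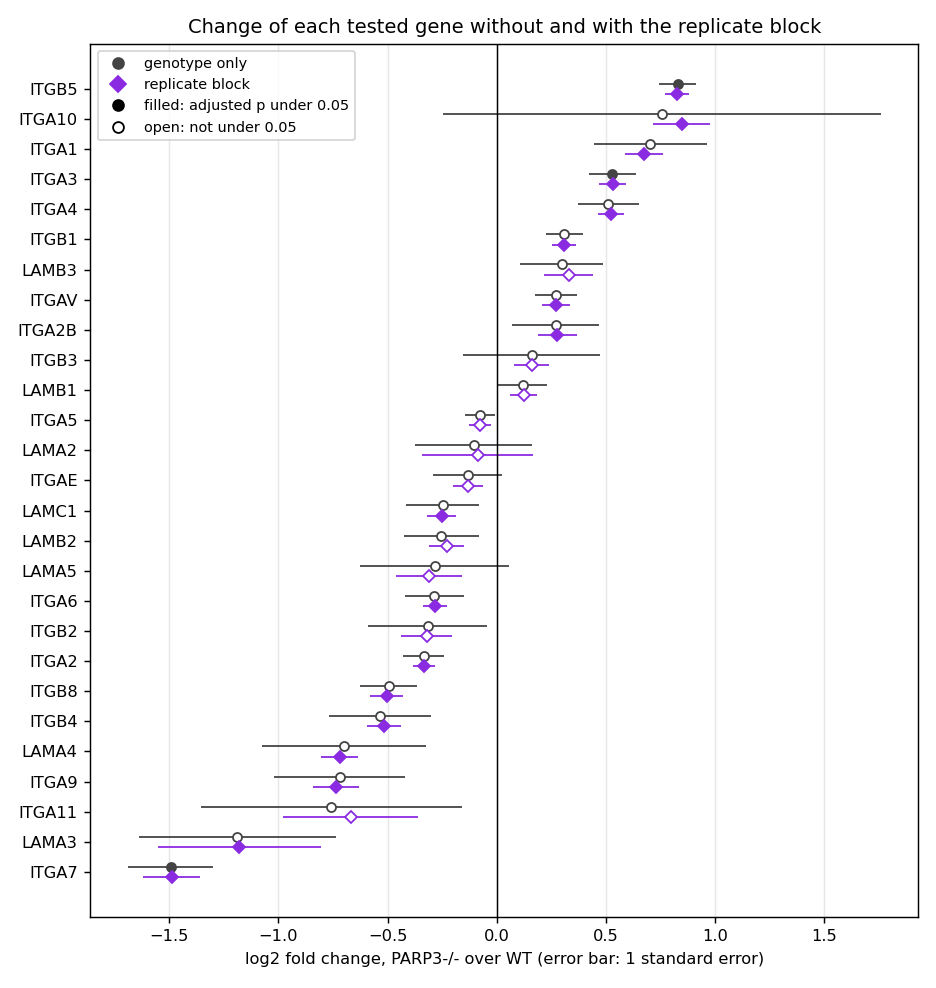
Log2 fold change of PARP3-/- over WT for 27 of the 28 tested genes without (grey circles) and with (purple diamonds) the replicate block, with bars of 1 standard error. Filled symbols mark an adjusted p under 0.05: 3 circles and 17 diamonds are filled, and for ITGA10 the bar is far shorter with the block.

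The largest rise that passed without the block was that of a vitronectin receptor subunit. ITGB5 (ENSG00000082781, hg38 chr3:124761948-124901418, minus strand) encodes β5, which pairs with αV to bind vitronectin. Its level was 172, 181 and 179 CPM in WT and 317, 337 and 292 CPM in PARP3-/- cells. Each PARP3-/- library lay far above every WT library. The rise was 1.78-fold, or 0.83 on the log2 scale with a standard error of 0.085 (adjusted p = 0.00262), and the call held in 6 of 6 fits that left out 1 library. ITGB5 overlaps 3 annotated genes on its own strand and ITGB5-AS1 on the other, and reads that fall on several genes may be left out of its count. Because ITGB5 was the most firmly called of the 37 genes, the bases upstream of its RefSeq start are shown, from GRCh38.p14 chr3:124887366-124887599 on the minus strand, 234 bases that lie in no annotated exon but within the span of the gene's longest form. Capitals mark the GC box GGGCGG on either strand, a sequence known to be bound by SP1.
ITGB5: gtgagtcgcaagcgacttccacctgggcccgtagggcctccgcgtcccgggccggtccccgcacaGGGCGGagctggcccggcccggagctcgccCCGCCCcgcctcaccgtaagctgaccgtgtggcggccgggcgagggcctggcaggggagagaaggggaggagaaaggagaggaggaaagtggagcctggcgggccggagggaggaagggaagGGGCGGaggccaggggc
The stretch held 3 GC boxes. Of the 25 genes of the 37 with an entry in the RefSeq table, 13 had a GC box in the 250 bases upstream of the start, or 52.0%, against 42.6% of all 35116 promoters of the same length. ITGA3 and ITGA7 have no entry there.

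ITGB8 moved the other way from ITGB5. It encodes β8, which also pairs only with αV and takes part in the activation of latent TGF-β. Its level was 455, 504 and 457 CPM in WT and 276, 354 and 375 CPM in PARP3-/- cells, with no overlap. The log2 fold change of −0.49 did not pass without the block (adjusted p = 0.0975) and passed with it (−0.50, adjusted p = 0.000679). DESeq2, which has its own estimate of the spread, also called it (adjusted p = 0.0246). On simulated data DESeq2 made 37 false calls, against 3 for edgeR without the block. The ratio of ITGB5 to ITGB8 per kb was 0.767, 0.727 and 0.790 in the WT libraries and 2.32, 1.92 and 1.57 in the PARP3-/- libraries. ITGB8 was thus the more abundant of the pair in every WT library and ITGB5 in every PARP3-/- library, on the scale of canonical transcripts. With 3 libraries per genotype an exact permutation test cannot reach 0.05, so ratios and shares are given without a test. Among the β partners of αV other than β1, ITGB5 made up 32.6 ± 2.55% of the summed level in WT and 49.9 ± 3.15% in PARP3-/- cells (SD, n = 3), and ITGB8 42.9 ± 4.54% and 26.4 ± 5.39%.

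The shared partner ITGAV and the common β1 gene ITGB1 lay slightly higher in PARP3-/- cells. ITGAV stood at 383, 372 and 409.9 CPM in WT and 514, 442 and 452 CPM in PARP3-/- cells. ITGB1 stood at 693, 702 and 695 and 871, 891 and 827 CPM. Neither overlapped between the genotypes, and the 3 WT values of ITGB1 differed by little. Without the block their log2 fold changes of 0.27 and 0.31 did not pass (adjusted p = 0.212 and 0.108). With it, both passed at 0.27 and 0.31 (adjusted p = 0.00990 and 0.00243). The call of ITGAV was lost again when replicate 1 was left out without a block (adjusted p = 0.0815), while that of ITGB1 was not (adjusted p = 0.0119). ITGA5, the α subunit of the main fibronectin receptor, varied little over all 6 libraries, with 89.5, 88.9 and 90.5 CPM in WT and 83.7, 89.0 and 82.6 CPM in PARP3-/- cells. Its difference was −0.075 on the log2 scale with a standard error of 0.068 (adjusted p = 0.707), and −0.075 with the block (adjusted p = 0.314). The ratio of ITGAV to ITGA5 per kb was 2.58, 2.52 and 2.74 in WT and 3.71, 2.997 and 3.30 in PARP3-/- libraries. ITGB3, a further vitronectin receptor subunit that pairs with αV, varied more by replicate than by genotype, with 243, 122 and 177 CPM in WT and 285, 157 and 162 CPM in PARP3-/- cells. The replicate 1 library was the highest in both groups. ITGB3 passed neither without the block (log2 fold change 0.16, adjusted p = 0.895) nor with it (adjusted p = 0.180). It overlaps a readthrough gene on its own strand, and reads that fall on both are left out of its count. ITGA2B, the αIIb subunit best known from platelets, stood at 7.12, 11.3 and 11.2 CPM in WT and 10.1, 12.9 and 12.7 CPM in PARP3-/- cells. It passed only with the block (log2 fold change 0.28, adjusted p = 0.0435), and no longer once replicate 1 was left out (adjusted p = 0.147). The platelet marker GP1BA had 1 count over all 6 libraries.

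The laminin-binding α subunits did not move together. ITGA3 (ENSG00000005884, chr17:50055968-50090481, plus strand) encodes α3, a receptor subunit for laminins of the α3 and α5 type. Its level was 888, 910.0 and 780.3 CPM in WT and 1182, 1335 and 1206 CPM in PARP3-/- cells, with every PARP3-/- library above every WT library. The rise was 0.53 on the log2 scale with a standard error of 0.11 (adjusted p = 0.0410), and 0.53 with the block (adjusted p = 0.000151). The call without the block lay close to the limit: it held only when WT 1 was left out (adjusted p = 0.0425) and was lost when any of the 5 other libraries was, with an adjusted p of 0.0689 to 0.188. ITGA6, the α6 subunit of the receptors α6β1 and α6β4, stood at 572, 731 and 707 CPM in WT and 479.9, 572 and 597 CPM in PARP3-/- cells. The genotypes overlapped, but in each same-numbered pair the PARP3-/- library was the lower. Its log2 fold change of −0.29 passed with the block and not without it (adjusted p = 0.00373 and 0.365), and it also passed without the block once replicate 1 was left out (adjusted p = 0.00822). ITGB4, whose product β4 pairs with α6 alone, was 26.4, 16.2 and 16.5 CPM in WT and 16.7, 12.9 and 11.2 CPM in PARP3-/- cells. It behaved as ITGA6 did in the tests, with a log2 fold change of −0.54 without (adjusted p = 0.322) and −0.52 with the block (adjusted p = 0.000816). The ratio of ITGA3 to ITGA6 per kb was 1.85, 1.48 and 1.31 in WT and 2.93, 2.78 and 2.40 in PARP3-/- libraries, without overlap.

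The largest fall among the 28 tested genes was that of the least abundant laminin-binding α subunit. ITGA7 (ENSG00000135424, chr12:55684568-55716043, minus strand) encodes α7, a laminin receptor subunit known from muscle and glioma stem cells. It was counted 271, 241 and 249 times in WT and 81, 106 and 67 times in PARP3-/- libraries, or 7.42, 5.74 and 6.07 against 2.69, 2.38 and 1.77 CPM. The highest PARP3-/- library lay well under the lowest WT library. It was 2.82-fold lower, with a log2 fold change of −1.49 and a standard error of 0.20 (adjusted p = 0.00730), and this call held in 6 of 6 fits that left out 1 library. ITGA7 overlaps METTL7B and BLOC1S1 on the opposite strand, and whether the counting used the strand is not given in the sources used here, so reads from these genes cannot be told apart with certainty. In absolute terms ITGA7 was minor: it made up 0.535 ± 0.0979% of the summed level of the laminin-binding α subunits in WT and 0.159 ± 0.0390% in PARP3-/- cells, whereas ITGA3 made up 60.1 ± 4.03% and 72.8 ± 2.01% (SD, n = 3).

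**Figure D3:**
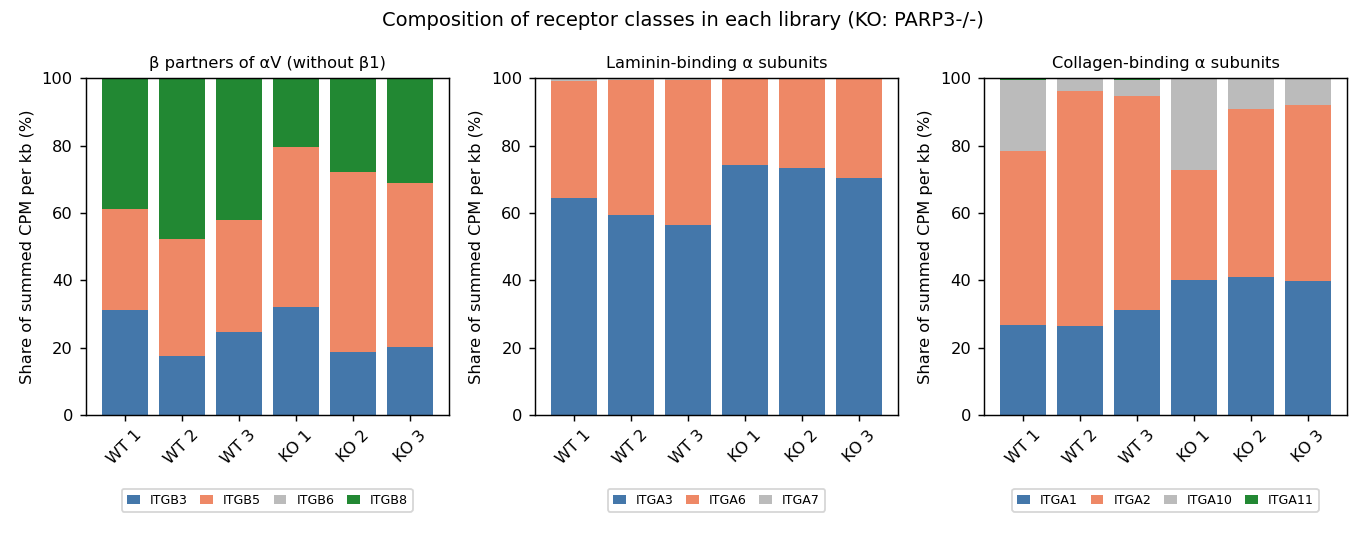
Share of each subunit in the summed CPM per kb of its class, for the β partners of αV other than β1, the laminin-binding α subunits and the collagen-binding α subunits, with 1 bar per library (KO stands for PARP3-/-). ITGB5, ITGA3 and ITGA1 take a larger share in each PARP3-/- library than in any WT library.

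The genes of the collagen receptors ITGA1 and ITGA2 are neighbours on chromosome 5, 30.1 kb apart on the same strand, and they moved in opposite directions. ITGA1 stood at 47.7, 31.1 and 39.3 CPM in WT and 90.1, 52.0 and 50.5 CPM in PARP3-/- cells. ITGA2 stood at 67.8, 60.3 and 58.6 and 53.7, 46.2 and 48.3 CPM. Neither overlapped between the genotypes, ITGA1 being higher and ITGA2 lower in PARP3-/- cells. Without the block neither passed, at log2 fold changes of 0.70 and −0.33 (adjusted p = 0.233 and 0.116). With it both did, at 0.68 and −0.33 (adjusted p = 0.000272 and 0.000746), and both also passed with replicate 1 left out and no block (adjusted p = 0.00373 and 0.00264). The ratio of ITGA1 to ITGA2 per kb was 0.513, 0.377 and 0.490 in WT and 1.22, 0.822 and 0.764 in PARP3-/- libraries. ITGA1 contains the gene PELO on its own strand, and union-mode counting leaves out reads that fall on both. To show how these neighbours differ upstream, RefSeq promoter bases are given up to where annotated exons begin, short of each RefSeq start. They span GRCh38.p14 chr5:52787666-52787895 and chr5:52989102-52989325, both on the plus strand and outside annotated exons, with GC boxes in capitals.
ITGA1: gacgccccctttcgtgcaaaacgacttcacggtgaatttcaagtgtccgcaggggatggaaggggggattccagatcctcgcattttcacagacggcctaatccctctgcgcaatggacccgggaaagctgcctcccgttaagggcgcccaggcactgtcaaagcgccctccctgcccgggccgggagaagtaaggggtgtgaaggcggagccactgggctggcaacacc
ITGA2: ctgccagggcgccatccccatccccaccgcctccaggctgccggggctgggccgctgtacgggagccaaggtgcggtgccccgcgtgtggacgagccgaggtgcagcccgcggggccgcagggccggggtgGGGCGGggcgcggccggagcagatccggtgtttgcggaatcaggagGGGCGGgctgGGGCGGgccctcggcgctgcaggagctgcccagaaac
The 230 bases before ITGA1 held 0 GC boxes and 15 CpG dinucleotides, and the 224 bases before ITGA2 held 3 GC boxes and 24 CpG dinucleotides.

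ITGA10 showed how far replicate 1 could differ. ITGA10, a collagen receptor subunit known from cartilage, stood at 18.0, 2.05 and 2.97 CPM in WT and 29.0, 5.46 and 4.61 CPM in PARP3-/- cells. In both groups replicate 1 was the highest, 8.79 times the lowest library in WT and 6.30 times in PARP3-/- cells. Within each same-numbered pair the PARP3-/- library was the higher, 1.61, 2.66 and 1.55 times. The log2 fold change was 0.76 with a standard error of 1.00 (adjusted p = 0.820), and with the block 0.85 with a standard error of 0.13 (adjusted p = 0.000848). The blocked standard error draws in large part on the spread shared over all genes. Without the PARP3-/- replicate 1 library and without the block the sign turned, to −0.60. With both replicate 1 libraries left out it was 1.00 (adjusted p = 0.00499). ITGA11, the remaining collagen receptor subunit, had at most 38 counts in a library, and its log2 fold change of −0.76 did not pass (adjusted p = 0.645, and 0.151 with the block).

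**Figure D4:**
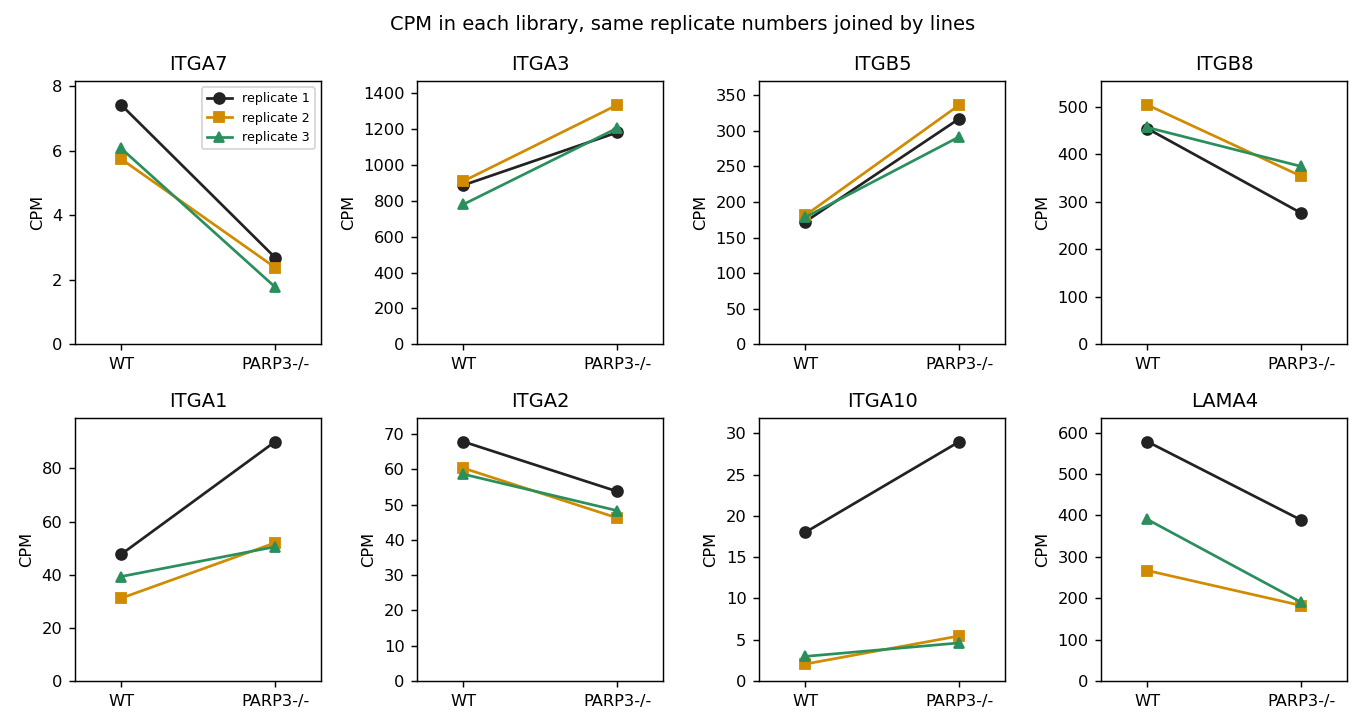
CPM of 8 integrin and laminin genes in each library, from 0 upward, with lines joining WT and PARP3-/- libraries of the same replicate number. The 3 lines of each gene run in 1 direction. For ITGA10 and LAMA4 in both genotypes, and for ITGA1 in PARP3-/- cells, the replicates lie further apart than the genotype means.

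The α4 and α9 subunits, which bind fibronectin and VCAM1 or tenascin and are close relatives, moved apart as well. ITGA4 stood at 149.7, 212 and 190.0 CPM in WT and 239.6, 282 and 265 CPM in PARP3-/- cells, without overlap. ITGA9 stood at 157, 91.3 and 154 and 116, 59.7 and 69.3 CPM, and the genotypes overlapped. With the block ITGA4 rose by 0.52 and ITGA9 fell by 0.73 on the log2 scale (adjusted p = 0.000120 and 0.000546), whereas without it the adjusted p was 0.108 and 0.302. DESeq2 called ITGA4 (adjusted p = 0.0361) and not ITGA9 (adjusted p = 0.184). Of the subunits best known from leukocytes, ITGAE stood at 13.6, 19.3 and 17.3 CPM in WT and 13.0, 16.6 and 16.2 CPM in PARP3-/- cells, and ITGB2 at 5.86, 9.65 and 6.85 and 3.98, 7.16 and 6.78 CPM. Neither passed with the block (adjusted p = 0.209 and 0.0705). The α subunits that pair with β2, ITGAL, ITGAM, ITGAX and ITGAD, had at most 5 counts in any library, and the leukocyte gene PTPRC had at most 4.

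Among the laminin α and β chains, 1 gene of each class prevailed. LAMA4 made up 98.6 ± 0.148% of the α chains per kb in WT and 98.2 ± 0.310% in PARP3-/- cells. LAMB1 made up 76.6 ± 2.36% and 79.6 ± 0.348% of the β chains. With LAMC1, these encode the chains of laminin-411, a component of vessel walls. LAMA4 was 578, 267 and 390.1 CPM in WT and 388, 182 and 189.9 CPM in PARP3-/- cells. The genotypes overlapped, with replicate 1 the highest in both, and the PARP3-/- library of each pair was the lower. The log2 fold change of −0.70 did not pass without the block (standard error 0.38, adjusted p = 0.447), and with the block it was −0.72 (standard error 0.086, adjusted p = 0.000161).

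LAMC1 lay at 753, 555 and 683 CPM in WT and 678, 493 and 506 CPM in PARP3-/- cells, with overlap. It was lower with the block (log2 fold change −0.25, adjusted p = 0.0187) and with replicate 1 left out and no block (adjusted p = 0.0413), but not in the fit of all libraries without it (adjusted p = 0.573). LAMB1, by contrast, lay at 886, 715 and 752 and 896, 838 and 820.2 CPM and passed in neither fit of all 6 libraries (adjusted p = 0.721, and 0.177 with the block). With replicate 1 left out of the blocked fit it was higher (log2 fold change 0.17, adjusted p = 0.0118). The ratio of LAMB1 to LAMC1 per kb was 1.65, 1.81 and 1.54 in WT and 1.85, 2.39 and 2.27 in PARP3-/- libraries, so that the groups did not overlap. LAMB2, the β2 chain, was 266, 174 and 180.4 CPM in WT and 186, 173 and 161 CPM in PARP3-/- cells, with log2 fold changes of −0.25 without and −0.23 with the block (adjusted p = 0.567 and 0.0655). LAMA3 and LAMB3 encode chains known from the basement membrane of the skin. LAMB3 was 34.3, 25.02 and 19.7 CPM in WT and 32.3, 33.2 and 31.6 CPM in PARP3-/- cells, and it did not pass with the block (adjusted p = 0.0553) but did with replicate 1 left out of it (log2 fold change 0.54, adjusted p = 5.10e-13). The last value rests mainly on a spread shared over all genes and not on that of LAMB3. LAMA3 had 24, 18 and 16 counts in WT and 8, 13 and 3 in PARP3-/- libraries. It was lower with the block (log2 fold change −1.18, adjusted p = 0.0421), a call that was lost without replicate 1 (adjusted p = 0.0694). The α2 and α5 chain genes LAMA2 and LAMA5 passed in neither fit (adjusted p with the block of 0.848 and 0.177), although LAMA5 did with the block and without replicate 1 (log2 fold change −0.45, adjusted p = 0.00475).

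The genes that work with integrins and laminins were read from 3 lists: 38 cytoplasmic adaptors, 29 matrix ligands and 20 surface partners. In the adaptors, which link the tails of β subunits to actin, 3 of 36 tested genes were lower and 0 were higher (background 3.33% lower and 1.36% higher). At an unadjusted p under 0.05 edgeR had 4 lower and 6 higher, while 2788 of all 17144 genes had such a p in either direction. DESeq2 called 3 lower and 1 higher, against 3.84% and 2.09% of all genes. The 3 lower genes were among the largest differences in the lists. PARVB, encoding β-parvin, which binds integrin-linked kinase, stood at 2.71, 2.86 and 2.78 CPM in WT and 0.299, 0.135 and 0.212 CPM in PARP3-/- cells (log2 fold change −3.73, adjusted p = 0.000599). TNS1, encoding tensin-1, had 34, 39 and 35 counts in WT and 1, 0 and 0 in PARP3-/- libraries (adjusted p = 0.00160). Against a floor of 3 counts per library it was at least 9.09-fold lower. PARVG, encoding γ-parvin and lying next to PARVB, had 14, 16 and 12 counts in WT and 0 in all 3 PARP3-/- libraries (adjusted p = 0.0114), and was at least 3.54-fold lower against the same floor. PARVB, TNS1 and PARVG passed the count filter only through their WT libraries, so they could be called lower but not higher. Among adaptors with a mean of at least 10 CPM, 0 of 30 passed without the block, against 3.07% of such genes. The α-parvin gene PARVA was 74.9, 82.7 and 78.1 CPM in WT and 83.1, 86.6 and 83.4 CPM in PARP3-/- cells (log2 fold change 0.10, adjusted p = 0.587). With the block (12.5% of all genes lower and 11.8% higher) 5 of the 36 adaptors were lower, TLN2 among them (−0.26, adjusted p = 0.00296), and 11 were higher, among them GIT1 (0.44, adjusted p = 0.000531), KANK2 (0.42, adjusted p = 0.000251) and vinculin, VCL (0.19, adjusted p = 0.0174). Apart from PARVG, TNS1 and PARVB, the fold changes of the adaptors without the block lay between −0.44 and 0.44 on the log2 scale.

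Among the matrix ligands, 1 of 26 tested genes was lower and 3 were higher without the block (3.33% and 1.36% of all genes), and 4 were lower and 13 higher with it (12.5% and 11.8% of all genes). FBN1, encoding the microfibril protein fibrillin-1, was 84.4, 82.0 and 95.0 CPM in WT and 55.0, 50.6 and 51.9 CPM in PARP3-/- cells (log2 fold change −0.73, adjusted p = 0.00455). AGRN, the basement membrane proteoglycan agrin, was 127, 126 and 116 and 177, 216 and 187 CPM (log2 fold change 0.65, adjusted p = 0.0135). EDIL3, a secreted RGD ligand of αVβ5 and αVβ3, was 154, 132 and 132 CPM in WT and 201, 196 and 179.6 CPM in PARP3-/- cells (log2 fold change 0.46, adjusted p = 0.0423). The collagen IV chain COL4A1 was the other call, at 0.50 (adjusted p = 0.0263). EDIL3 and COL4A1 kept their call in 1 of 6 fits that left out 1 library, AGRN in 3 of 6 and FBN1 in 6 of 6. In edgeR's fits of all 6 libraries COL4A2 and COL18A1 passed with the block and not without it, at 0.39 and 0.55 (adjusted p = 0.000607 and 6.76e-05), and DESeq2 called both without a block (adjusted p = 0.00231 and 0.0162). Fibronectin, FN1, was 1555, 1079.7 and 1133 CPM in WT and 2162, 1963 and 1676 CPM in PARP3-/- cells, without overlap. It passed with the block (0.63, adjusted p = 0.000203) and, without it, in DESeq2 (adjusted p = 0.0114) but not in edgeR (adjusted p = 0.118). NTN1, encoding the laminin-related netrin-1, was lower with the block (−0.50, adjusted p = 0.00967).

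Among the surface partners, which include tetraspanins, syndecans and dystroglycan, edgeR called 0 of 20 lower and 1 higher without the block, against 3.33% and 1.36% of all genes. At an unadjusted p under 0.05 edgeR had 7 lower and 2 higher, while 2788 of all 17144 genes had such a p in either direction. DESeq2 called 3 lower and 2 higher, against 3.84% and 2.09% of all genes. The gene that rose was MCAM, a laminin-411 receptor of the immunoglobulin family, with 332, 382 and 336 CPM in WT and 460.1, 551 and 509.6 CPM in PARP3-/- cells (log2 fold change 0.53, adjusted p = 0.0378). With the block 7 were lower and 3 higher, against 12.5% and 11.8% of all genes. The lower ones included CD47 (−0.39, adjusted p = 0.000594), the tetraspanin CD81 (−0.45, adjusted p = 6.62e-05), and the laminin receptor dystroglycan, DAG1 (−0.38, adjusted p = 0.000433). SDC3 was also lower (−0.30, adjusted p = 0.0108) and the adhesion molecule L1CAM higher (0.55, adjusted p = 8.57e-05). The median log2 fold changes without the block were 0.099 for the adaptors, 0.19 for the matrix ligands and −0.062 for the surface partners, beside −0.12 for the integrin and laminin genes.

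**Figure D5:**
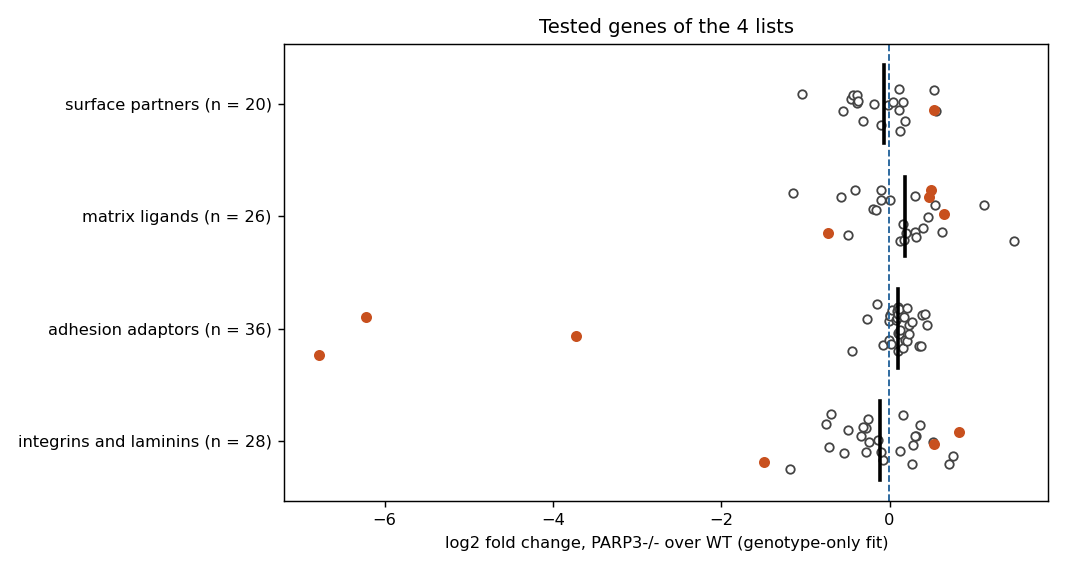
Log2 fold change without the replicate block of the tested genes in the 4 lists, 1 point per gene, filled where the adjusted p was under 0.05, with a bar at the median of each list and a dashed line at the median of all genes tested. Most points lie within 1 log2 unit of 0, and the 3 adaptors far to the left are PARVG, TNS1 and PARVB, of which the positions of PARVG and TNS1 are fitted values and not bounds.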

How the data were processed

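RNA from 3 WT and 3 PARP3-/- LN229 libraries was analysed, with genotype and replicate number taken from the labels. The deposited table holds raw read counts per Ensembl gene, 1 column per library, which are not normalized. Per the methods and the submitters' processing notes, the authors made them from total RNA libraries depleted of ribosomal RNA (the labels name polyA RNA) by trimming with cutadapt 1.10, removal of ribosomal reads with Bowtie2 2.2.8, alignment to hg38 with STAR 2.5.3a and union-mode counting with HTSeq 0.6.1p1 on Ensembl 91. Union mode leaves out reads that overlap several genes. The authors' median transcript length per gene was used for 1 comparison of levels. A further 12 columns of normalized values per sample, and the columns of the authors' own comparison (log2 ratio, p and adjusted p, made with DESeq2 1.16.1), were not used.

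Counts were analysed in R 4.3.3 with edgeR 4.0.16 (TMM, filterByExpr with a minimum count of 10, quasi-likelihood test, Benjamini-Hochberg adjustment over all genes tested), as genotype alone. Standard errors follow from each fold change and its F value. Alternatives were a replicate block, DESeq2 1.42.0, RLE size factors, no filter, a mean count of at least 50, each library left out, and replicate 1 left out with the block. Leaving replicate 1 out without the block was added after the data had been seen. The labels give replicate numbers and do not state that these pair the libraries. Over 17144 genes, deviations from the group means of same-numbered libraries correlated at 0.676, 0.517 and 0.242 for replicates 1, 2 and 3. Other pairs ranged from −0.628 to 0.410, and WT 3 correlated slightly more with PARP3-/- 2 (0.264) than with its own number. Because each genotype was centred on its mean, an outlying replicate 1 in both also raises the values for replicates 2 and 3. Canonical transcript lengths and overlapping genes come from GENCODE 44, and promoters from RefSeq on GRCh38.p14. Scripts used Python 3.11.15. They were tested on counts simulated without a replicate effect, with known changes in some genes. Of 67 genes changed 1.5-fold, edgeR recovered 11 without the block and 2 with it, and DESeq2 recovered 25. False calls numbered 3, 4 and 37 in the same order. A gene that did not pass may thus still differ by that much.

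The integrin and laminin genes, the 3 lists of companion genes and the alternatives were chosen with earlier results of these data known. All integrin and laminin genes could be named, as could PARP3 and the markers. From each companion list, at most 6 genes per direction could be named, those with an adjusted p under 0.05 in either edgeR fit and no overlap between the genotypes, smallest p first. PARVA was named after its values were seen. The values of 2 genes of these lists are not reported here, though both stay in the tests and counts.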

Additional observations from a re-analysis of the deposited data

How the results depend on the processing

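The replicate block and leaving out replicate 1 moved the counts most. Without it 1 integrin or laminin gene was lower and 2 were higher, and with the replicate block 9 and 8. The other counts with the block (lower and higher) were 5 and 11 for the adaptors, 4 and 13 for the matrix ligands and 7 and 3 for the surface partners. Of all genes tested, 12.5% were lower and 11.8% higher with the block. With both libraries of replicate 1 left out of the blocked fit the counts were 9 and 9 for the integrin and laminin genes and 5 and 13 for the adaptors. They were 8 and 11 for the matrix ligands and 7 and 7 for the surface partners, against 15.4% lower and 14.5% higher of all genes. Without replicate 1 and without the block they were 8 and 7, 4 and 8, 4 and 11, and 6 and 3 in the same order. In that fit 10.1% of all genes were lower and 8.91% higher. The block turned the direction of no integrin or laminin gene: 14 of the 28 gained a call with it and none lost one.

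DESeq2 called 2 lower and 4 higher integrin or laminin genes and 3 lower and 1 higher adaptors. It also called 2 lower and 7 higher matrix ligands and 3 lower and 2 higher surface partners, against 3.84% and 2.09% of all genes. Without the filter the matrix ligands had 2 lower and 6 higher and the surface partners 1 lower and 2 higher. That fit called 724 lower and 248 higher of 33841 genes. A mean count of at least 50 left 1 lower adaptor, since PARVG and TNS1 were then not tested. Of 13287 genes, 331 were lower in that fit. With a log2 fold change beyond 1 asked for as well, 0 integrin or laminin genes were higher, 0 matrix ligands were lower or higher and 0 surface partners were higher. An adjusted p under 0.001 with that fold also left 0 lower integrin or laminin genes and 1 lower adaptor. RLE size factors changed no call of the 28 genes.

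Leaving out 1 library at a time gave 1 lower and 1 to 2 higher integrin or laminin genes, 2 to 3 lower and 0 to 1 higher adaptors, 1 to 2 lower and 0 to 5 higher matrix ligands, and 0 to 1 lower and 0 to 1 higher surface partners. Over all genes these fits called 281 to 606 lower and 49 to 259 higher, of 17427 to 17647 tested. Of the 28 genes, 3 changed sign in such fits, none of which had been called: ITGA10 ranged from −0.60 to 2.36, ITGB3 from −0.17 to 0.43 (−0.059 without WT 2) and LAMA2 from −0.29 to 0.028 (0.018 without WT 1). ITGA3 lost its call in 5 of 6.

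Depth limits what can be said of the 9 genes under the filter and of LAMA2, LAMA3 and ITGA11, which had at most 38 counts in any library. The cause of these shifts was not tested. RNA counts do not measure protein, dimers or surface receptors, and the effect of reads that fall on several genes remains uncertain: 23 of the 28 tested genes overlap another annotated gene on either strand, ITGB5 included.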

Other observations

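Several of the 37 genes lie beside one another in hg38. On chromosome 7, LAMB1 and LAMB4 are 20.3 kb apart, and LAMB4 had at most 10 counts in a library while LAMB1 had at least 27009. On chromosome 16, the leukocyte subunit genes ITGAM and ITGAX are 22.2 kb apart and ITGAX and ITGAD 10.3 kb, and all 3 had 0 to 5 counts in each library.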
